A study of Mus musculus with 18 samples.

Results

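The heart genes that move calcium in and out of the sarcoplasmic reticulum were followed in 18 RNA-seq libraries of C57 mouse hearts. The 10 genes were chosen by name from the 34714 in the table. Of these 10, 9 passed a filter on low values, as did 11937 genes in all; Sln did not. The groups were KCP knockout (KO) hearts after transverse aortic constriction surgery (TAC, 5 libraries), KO hearts after sham surgery (4 libraries), WT hearts after TAC (5 libraries) and WT hearts after sham surgery (4 libraries). TAC narrows the aorta and loads the left ventricle with pressure. KCP is the kielin/chordin-like protein, a secreted regulator of BMP and TGF-beta signalling, and the design sets its loss against WT with and without pressure load. The sources used here do not give the age of the mice, the cells in which Kcp was deleted, the time between surgery and collection, or whether each library came from a separate mouse. The p-values therefore measure the spread between these samples, which may be technical in part.

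In each heartbeat a small calcium current through the L-type channel opens ryanodine receptors in the facing reticulum, and the calcium they release makes the myofilaments contract. The muscle relaxes when the pump SERCA2a returns calcium to the reticulum and the sodium-calcium exchanger carries the rest out of the cell. Phospholamban restrains the pump until it is phosphorylated, and lower pump activity is a classic feature of the failing heart. The 10 genes fall into uptake (Atp2a2, Pln, Sln), storage (Casq2, Hrc), release and its anchoring (Ryr2, Trdn, Jph2) and transport across the cell membrane (Cacna1c, Slc8a1).

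Values are FPKM, fragments scaled by transcript length and library total, so levels of different genes can be compared. Sequencing depth is unknown. Kcp itself averaged 0.762 ± 0.197 FPKM in KO TAC and 0.665 ± 0.00891 in KO sham, against 1.12 ± 0.204 in WT TAC and 1.03 ± 0.279 in WT sham (SD; n = 5, 3, 5 and 4). KO was lower than WT after TAC (2-sided exact permutation p = 0.0079, the smallest these groups allow), and in sham hearts the p was 0.057 (exact permutation). Neither passed across all genes (limma adjusted p = 0.0843 after TAC and 0.301 in sham), and Kcp was not at 0 in KO. Library KO sham replicate 2 was left out of all means and tests, as it is named for replicates 3 and 4 together. Across genes the SD of its log2 difference from the mean of those libraries was 0.153, against 0.182 for KO sham replicate 1. For Ryr2 and Cacna1c replicate 2 (77.1 and 22.8 FPKM) lay within the range of replicates 3 and 4. For the other calcium cycling genes that passed the filter it lay outside, with Pln at 2723, Hrc at 419 and Trdn at 104 FPKM. Whether replicate 2 pools those samples was not tested. The name of KO TAC replicate 4 also joins a pair of sample names, neither of them carried by another library, and it was kept. The libraries also fall into 2 sets by Ndufb4c, which stood at 4.47 to 11.2 FPKM in all KO libraries and WT TAC replicate 5 and at 35.9 to 49.4 FPKM in the other 8 WT libraries. Genotype and set therefore nearly coincide, and in these data they cannot be told apart except through WT TAC replicate 5. All KO TAC and KO sham libraries are in one set. All 15 cardiomyocyte markers were present, with summed levels of 49330 to 55290 FPKM in KO TAC, 57920 to 62190 in KO sham, 54570 to 58040 in WT TAC and 57470 to 59720 in WT sham. The geometric mean of those markers varied less, between 0.944 and 1.03 times its mean over the libraries.

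Levels spanned a wide range. Atp2a2 and Pln ranked 14 and 16 among the 11937 genes by mean level, Casq2 and Hrc 143 and 191, Jph2, Trdn and Ryr2 479, 676 and 857, and Cacna1c and Slc8a1 2487 and 2824. In WT sham hearts Atp2a2 (2952 ± 56.3 FPKM) and Pln (2893 ± 57.9 FPKM) overlapped (SD, n = 4). The lower end of the order depended on the group. Slc8a1 and Cacna1c had 21.2 ± 2.71 and 20.2 ± 1.76 FPKM in KO TAC (SD, n = 5), where they overlapped, and 17.4 ± 1.17 and 24.7 ± 1.09 FPKM in WT sham (SD, n = 4), where they did not. The median coefficient of variation of the 9 genes was 8.71% in KO TAC, 7.56% in KO sham, 9.24% in WT TAC and 2.52% in WT sham, against 10.7%, 9.31%, 10.2% and 8.32% over all tested genes.

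**Figure D1:**
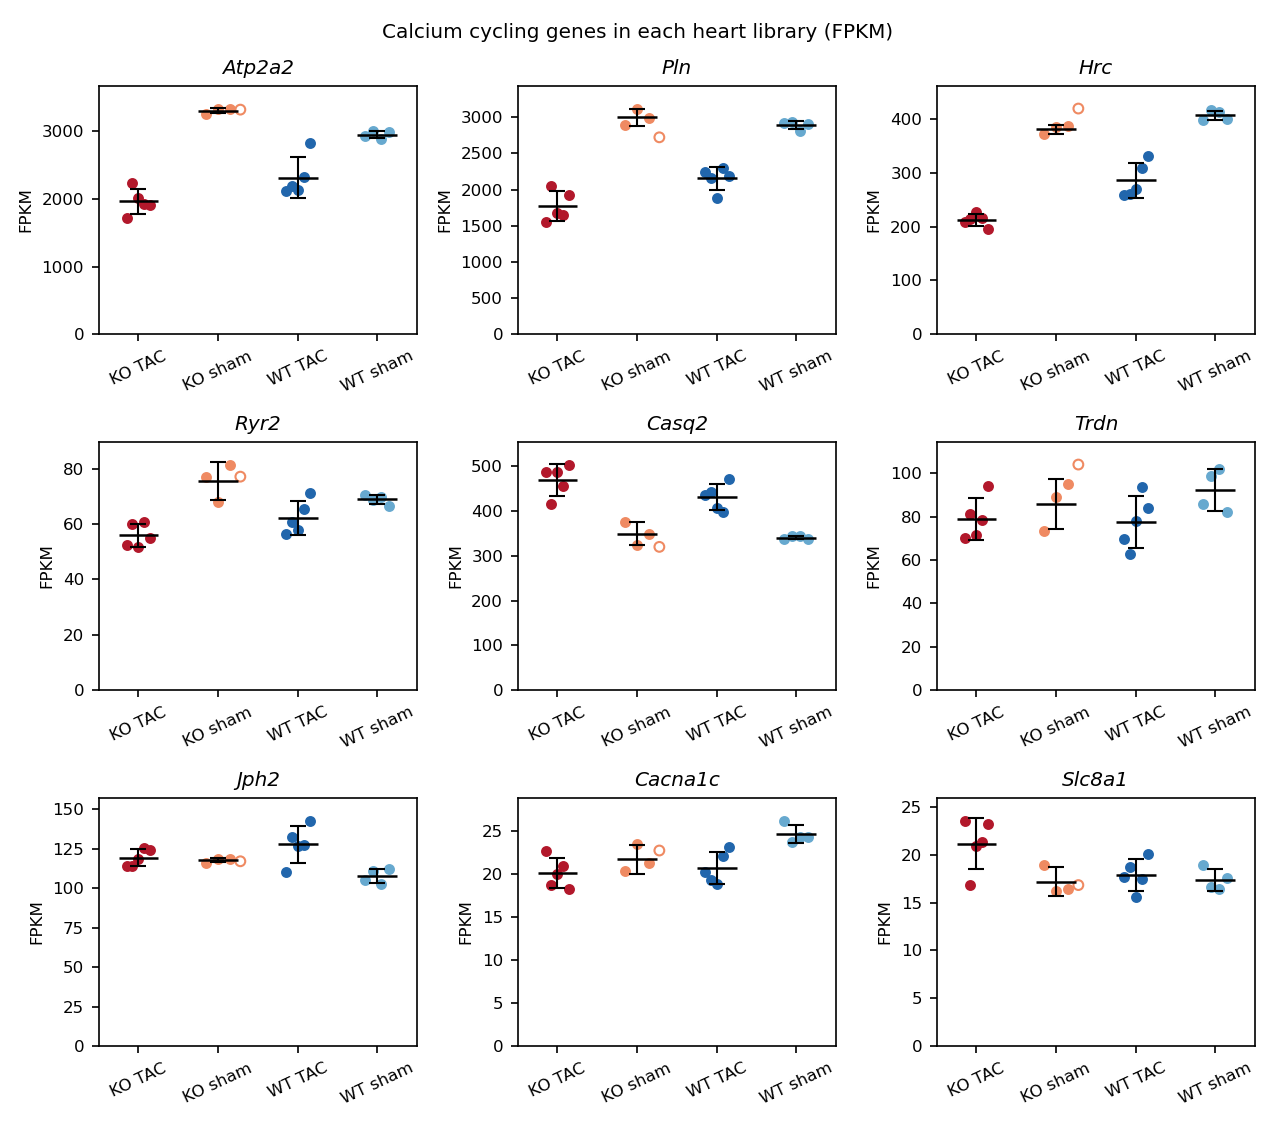
FPKM of 9 calcium cycling genes (y axes, from 0) in the 4 groups (x axes). Filled points are libraries in the model, bars are mean and SD, and the open point is KO sham replicate 2, outside the model. Atp2a2, Pln and Hrc are lower, and Casq2 higher, in every TAC library than in every sham library of the same genotype in the model.

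Of the uptake genes, Atp2a2 and Pln fell after TAC in both genotypes. Atp2a2 (chromosome 5, 122453513 to 122502225, GRCm38, minus strand) encodes SERCA2, whose cardiac form SERCA2a refills the reticulum. It had 1725, 2242, 2013, 1930 and 1914 FPKM in KO TAC, against 3260, 3327 and 3337 in KO sham replicates 1, 3 and 4. In WT hearts it had 2113, 2187, 2126, 2322 and 2831 FPKM after TAC, against 2935, 3007, 2880 and 2984 after sham. TAC and sham did not overlap in either genotype, and WT TAC replicate 5 lay close to the sham libraries. The TAC mean was 59.4% of the sham mean in KO and 78.4% in WT. The change in log2(FPKM + 1) was -0.76 ± 0.09 in KO (SE; limma with Benjamini-Hochberg, adjusted p = 2.97e-06) and -0.36 ± 0.08 in WT (adjusted p = 0.00346, limma). Without WT TAC replicate 5 the WT change was -0.43 ± 0.06. In bulk samples like these, fewer cells of a type and less RNA per cell cannot be told apart.

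Pln (chromosome 10, 53337686 to 53345999, plus strand) encodes phospholamban, the pump's inhibitor, and fell about as far as the pump. It had 1551, 2046, 1676, 1653 and 1930 FPKM in KO TAC, against 2890, 3121 and 2991 in KO sham. After TAC in WT it had 2237, 2163, 1886, 2303 and 2189 FPKM, against 2926, 2930, 2807 and 2908 in WT sham. Again no TAC library reached a sham library of its genotype. The log2 change was -0.77 ± 0.08 in KO (limma adjusted p = 1.31e-06) and -0.43 ± 0.07 in WT (limma adjusted p = 0.000557). A gene on the other strand, Cep85l, overlaps Pln at 1.6 to 3.26 FPKM, and the sources used here do not say whether the counting used strand.

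Sln (chromosome 9, 53850251 to 53853849) encodes sarcolipin, the small pump inhibitor that in mouse heart is mainly atrial. It did not pass the filter and was listed at 0 in all KO libraries. The WT libraries above 0 were TAC replicates 1 and 3 (0.192 and 0.187 FPKM) and sham replicate 3 (0.791 FPKM). Defining atrial genes were also at or near 0, with Myl7 at most 0.499 FPKM and Bmp10 at most 0.158 FPKM in any library of the model. Mybphl was at most 0.217 FPKM. Of the list of 11 atrial-enriched genes, 8 reached 1 FPKM in some library. The list summed to 21.97 to 35.3 FPKM in KO TAC, 60.9 to 69.5 in KO sham, 34.4 to 41.6 in WT TAC and 54.2 to 60.6 in WT sham, mostly from Kcnj3, Kcnj5 and Stard10. Of the 8 of them tested, 5 fell and 1 rose after TAC in each genotype, and 4 were lower in KO than in WT after TAC. Of all tested genes, 38.8% passed after TAC in KO, 21.9% in WT and 11.3% between genotypes after TAC. The gene that rose, Dkk3, reached 1 FPKM only in TAC libraries. Myl4, which fell in WT, reached it only in WT sham and KO TAC, so no support is drawn from either. Sbk2 and Sbk3 are among the 4 lower in KO after TAC. Sbk3 stood at 0.206 to 0.431 FPKM in KO TAC and 0.701 to 1.19 in WT TAC, so no support is drawn from it. Sbk2 stood at 0.0744 to 0.738 FPKM in KO TAC and 0.749 to 2.1 in WT TAC. The part of the atrial-enriched genes in the results for other genes was not tested. Skeletal muscle markers were low as well, with Myh4 listed at 0 throughout and a list sum of at most 18.6 FPKM, mostly Mybpc2.

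The storage genes split. Hrc (chromosome 7, 45335269 to 45338973, plus strand), the histidine-rich calcium-binding protein of the reticulum lumen that also binds the pump and triadin, had the largest fall of the 9 genes. It had 209, 215, 227, 216 and 195 FPKM in KO TAC, against 372, 384 and 388 in KO sham. In WT it had 259, 259.9, 270.2, 309 and 331 FPKM after TAC, against 398, 416, 412 and 399 after sham. Every TAC library was below every sham library of its genotype, and every KO TAC library below every WT TAC library. The log2 change was -0.84 ± 0.07 in KO and -0.51 ± 0.07 in WT (limma adjusted p = 2.51e-07 and 5.52e-05). Only 1.73% of the tested genes had a lower value in KO, and 2.57% in WT.

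Casq2 (chromosome 3, 102086415 to 102146514, plus strand) encodes cardiac calsequestrin, the main calcium buffer of the reticulum, and rose. It had 487, 415, 488, 455 and 504 FPKM in KO TAC, against 376, 324 and 349 in KO sham. In WT it had 436, 443, 408, 397.5 and 471 FPKM after TAC, against 336.5, 344, 344 and 338 after sham. Here too the TAC and sham libraries of a genotype did not overlap, in the opposite direction to Hrc. The log2 change was 0.42 ± 0.07 in KO and 0.34 ± 0.06 in WT (limma adjusted p = 9.62e-05 and 0.00108).

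The 250 bases before the RefSeq start (GRCm38.p6) are shown for Pln and Hrc, which fell, and for Casq2, which rose, so that promoters of genes with opposite changes can be compared. Capitals mark matches on either strand to the E-box CANNTG, the GATA motif AGATAA, the TATA box TATAAA, the CCAAT box CCAAT, the Sp1 motif GGGCGG, the TEAD motif CATTCC, and the MEF2 and CArG motifs. No matches overlapped in these windows.
Pln, chr10:53337436-53337685, plus strand: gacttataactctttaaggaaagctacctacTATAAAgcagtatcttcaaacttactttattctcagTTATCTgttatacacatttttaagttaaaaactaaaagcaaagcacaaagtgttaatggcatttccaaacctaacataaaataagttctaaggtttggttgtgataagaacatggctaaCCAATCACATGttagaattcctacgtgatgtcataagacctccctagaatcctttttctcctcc
Hrc, chr7:45335019-45335268, plus strand: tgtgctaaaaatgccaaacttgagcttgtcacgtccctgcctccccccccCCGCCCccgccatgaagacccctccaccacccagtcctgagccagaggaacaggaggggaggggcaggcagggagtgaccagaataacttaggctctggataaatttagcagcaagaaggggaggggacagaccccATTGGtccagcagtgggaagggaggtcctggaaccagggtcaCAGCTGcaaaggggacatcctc
Casq2, chr3:102086165-102086414, plus strand: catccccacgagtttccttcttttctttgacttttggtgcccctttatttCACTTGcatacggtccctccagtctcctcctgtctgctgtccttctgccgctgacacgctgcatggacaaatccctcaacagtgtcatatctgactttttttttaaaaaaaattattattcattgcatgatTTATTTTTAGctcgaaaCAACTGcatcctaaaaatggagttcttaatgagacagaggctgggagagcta
The window of Casq2 holds the MEF2 match, a motif found in 2.92% of 32851 such windows, and a pair of E-boxes. Pln and Hrc each hold a CCAAT box (33.8% of windows) and an E-box (66.2%). Pln also holds a TATA box (12.4%), far from the start, and a GATA match (9.99%), and Hrc an Sp1 match (32.7%). The G and C content was 32.8% for Pln, 59.6% for Hrc and 41.6% for Casq2, where the median of all windows was 52.4%. Of the 10 genes, 7 had a window in the table. These matches describe letters and show no binding.

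Of the release genes, Ryr2 passed in KO, Jph2 in WT and Trdn in neither; none of their interactions with genotype passed. Ryr2 (chromosome 13, 11553099 to 12106945), the ryanodine receptor through which the reticulum empties, had 52.5, 59.9, 51.7, 60.7 and 54.9 FPKM in KO TAC, against 77.1, 68.0 and 81.5 in KO sham. In WT it had 56.3, 60.6, 57.7, 65.5 and 71.2 FPKM after TAC, against 70.4, 68.8, 69.8 and 66.4 after sham. KO TAC and KO sham did not overlap, and in WT only TAC replicate 5 exceeded every sham library. The log2 change was -0.43 ± 0.08 in KO (limma adjusted p = 0.00033). In WT it was -0.15 ± 0.07 with an adjusted p of 0.151 (limma), and -0.20 ± 0.07 with an adjusted p of 0.0453 (limma) without WT TAC replicate 5.

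Jph2 (chromosome 2, 163336242 to 163398049) encodes junctophilin-2, which tethers the reticulum to the T-tubule. It had 114, 114, 119, 125 and 124 FPKM in KO TAC, against 116, 119 and 118 in KO sham, a log2 change of 0.02 ± 0.07 (limma adjusted p = 0.866). In WT it had 110.3, 132, 127, 127 and 143 FPKM after TAC, against 105, 111, 103 and 112 after sham, and rose by 0.24 ± 0.06 on the log2 scale (limma adjusted p = 0.00838). In WT the groups met only at TAC replicate 1. Trdn (chromosome 10, 33083483 to 33476709), triadin, which links the receptor to calsequestrin, did not pass in either genotype. It ranged from 70.2 to 94.1 FPKM in KO TAC and 73.2 to 95.2 in KO sham, and from 62.8 to 93.8 in WT TAC and 82.1 to 102 in WT sham. Its log2 change was -0.12 ± 0.12 in KO and -0.25 ± 0.11 in WT (limma adjusted p = 0.485 and 0.122), and the WT change passed without WT TAC replicate 4 (-0.32, limma adjusted p = 0.0484). An antisense gene, D830005E20Rik, overlaps Trdn at 3.24 to 5.68 FPKM.

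Of the membrane transporters, Slc8a1 passed in KO and Cacna1c in WT. The difference between genotypes did not pass for either (interaction 0.24 ± 0.13 and 0.14 ± 0.10, limma adjusted p = 0.331 and 0.502). Slc8a1 (chromosome 17, 81373105 to 81738387) encodes the sodium-calcium exchanger NCX1, which extrudes calcium between beats. It had 23.6, 16.8, 20.9, 21.4 and 23.3 FPKM in KO TAC, against 19.0, 16.2 and 16.4 in KO sham. In WT it had 17.7, 18.8, 15.6, 17.4 and 20.1 FPKM after TAC, against 19.0, 16.6, 16.4 and 17.6 after sham. In KO TAC, replicate 2 stayed within the KO sham range and the other libraries were above it. The log2 change was 0.28 ± 0.10 in KO (limma adjusted p = 0.0276) and 0.04 ± 0.09 in WT (limma adjusted p = 0.795). The KO call was lost without KO TAC replicate 1 or 5 or KO sham replicate 3 or 4 (limma adjusted p = 0.0664, 0.0601, 0.112 and 0.0945), and with median-ratio scaling (limma adjusted p = 0.0509).

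Cacna1c (chromosome 6, 118587240 to 119197384) encodes the pore of the L-type channel that triggers release. It had 22.7, 18.8, 20.1, 20.97 and 18.4 FPKM in KO TAC, against 20.4, 23.6 and 21.3 in KO sham. In WT it had 20.3, 19.4, 18.9, 22.2 and 23.2 FPKM after TAC, against 26.3, 23.8, 24.3 and 24.4 after sham. The KO groups overlapped and the WT groups did not. The log2 change was -0.10 ± 0.08 in KO (limma adjusted p = 0.309) and -0.24 ± 0.07 in WT (limma adjusted p = 0.0208). The WT call was lost without WT TAC replicate 2 or 3 or WT sham replicate 1 (limma adjusted p = 0.0512, 0.0581 and 0.0701).

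In all, 6 of the 9 tested genes changed after TAC in KO, where 38.8% of all tested genes did (21.1% rose and 17.7% fell), and 6 of 9 in WT, where 21.9% did (10.7% rose and 11.2% fell). In KO, Atp2a2, Pln, Hrc and Ryr2 fell and Casq2 and Slc8a1 rose. In WT, Atp2a2, Pln, Hrc and Cacna1c fell and Casq2 and Jph2 rose. The median log2 change of the 9 genes was -0.12 in KO, where that of all tested genes was 0.01, and -0.24 in WT, where it was -0.01. The TAC and sham libraries did not overlap for 5 of the 9 in KO (35.8% of all tested genes) and 5 of the 9 in WT (21.7%).

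**Figure D2:**
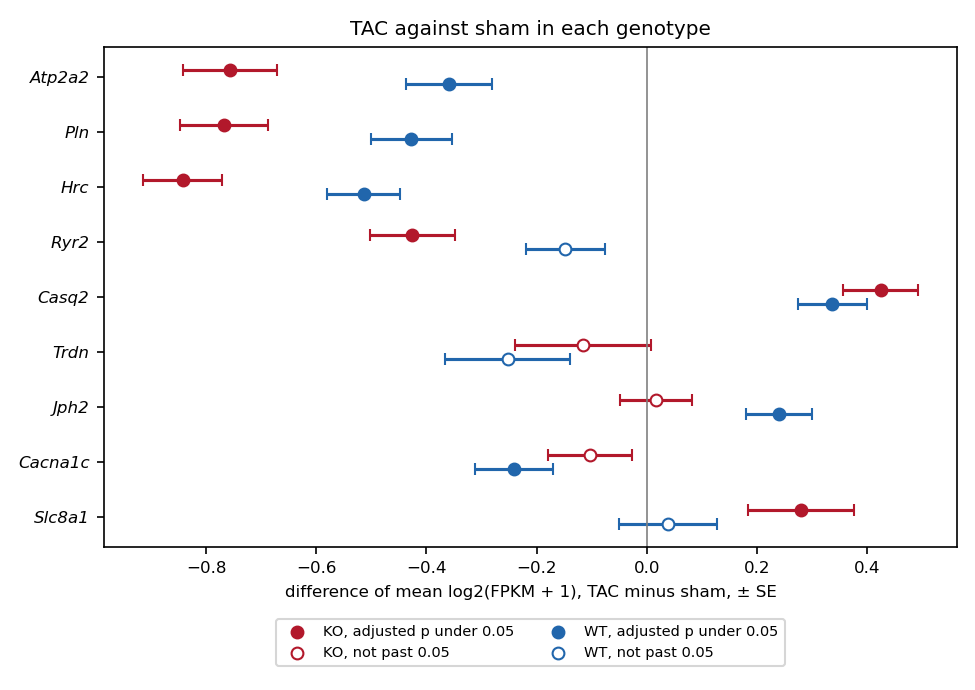
Difference of mean log2(FPKM + 1), TAC minus sham, with its SE (x axis) for 9 genes (y axis) in KO and WT. Filled points have adjusted p under 0.05. Atp2a2, Pln and Hrc lie between -0.84 and -0.76 in KO and between -0.51 and -0.36 in WT, and Casq2 lies above 0 in both.

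Markers of other cell types were compared between TAC and sham as well. Of all tested genes, 38.8% passed after TAC in KO and 21.9% in WT. The endothelial and smooth muscle counts, and the macrophage count in WT, were near or under these shares, so no difference is drawn from them. Fibroblast markers summed to 599 to 928 FPKM in KO TAC, against 339 to 397.5 in KO sham, and to 410.0 to 732 FPKM in WT TAC, against 341 to 444.5 in WT sham. Of 9 fibroblast markers, 7 rose and 0 fell in KO, and 4 rose and 1 fell in WT. Macrophage markers summed to 339 to 458 FPKM in KO TAC, against 244 to 268 in KO sham, and to 268 to 415 FPKM in WT TAC, against 209 to 362 in WT sham. Of 9 macrophage markers, 5 rose in KO; in WT 0 passed (limma) and 1 had an unadjusted p under 0.05. Endothelial markers summed to 810.5 to 1122 FPKM in KO TAC, against 829.7 to 929.7 in KO sham, and to 789 to 944 FPKM in WT TAC, against 810.1 to 870.2 in WT sham. Of 8 endothelial markers, 2 rose in KO; in WT 0 passed (limma) and 1 had an unadjusted p under 0.05. Smooth muscle and pericyte markers summed to 220.5 to 292 FPKM in KO TAC, against 278 to 304 in KO sham, and to 234 to 307 FPKM in WT TAC, against 313 to 327 in WT sham, and 2 of 8 fell in each genotype. The part of these other cell types in the changes was not tested. Within the muscle compartment, 4 of the 15 cardiomyocyte markers rose and 7 fell after TAC in KO, and 6 rose and 4 fell in WT. With every library scaled to the geometric mean of those markers, the same number of members passed after TAC, 6 in each genotype. The changes of Atp2a2, Pln and Hrc were then -0.73, -0.74 and -0.82 in KO and -0.37 (-0.365), -0.43 and -0.52 in WT.

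The genotypes were next compared after TAC. Hrc, Pln and Atp2a2 were lower in KO than in WT, and no member was higher past the threshold. That is 3 of 9, all lower, where 11.3% of all tested genes differed (6.53% higher and 4.78% lower). The 1350 genes behind that share became 663 without KO TAC replicate 1, 857 without KO TAC replicate 4 and 870 without WT TAC replicate 4, and 2 of the 9 members passed in each of those fits. Fibroblast markers differed too, with 4 of 9 higher in KO and 0 lower. The all-gene split depended on scaling: 779 genes were higher and 571 lower as fitted, and 633 higher and 727 lower with median-ratio scaling. Hrc averaged 212 ± 11.7 FPKM in KO TAC and 286 ± 32.2 in WT TAC (SD, n = 5 each), a log2 difference of -0.42 ± 0.06 (limma adjusted p = 0.0007). It was the member whose groups did not overlap, as was the case for 6.69% of tested genes. Pln averaged 1771 ± 208 FPKM in KO TAC and 2156 ± 159.7 in WT TAC (SD, n = 5 each; log2 difference -0.29 ± 0.07, limma adjusted p = 0.014). Atp2a2 averaged 1965 ± 187 FPKM in KO TAC and 2315 ± 299.6 in WT TAC (SD, n = 5 each; log2 difference -0.23 ± 0.07, limma adjusted p = 0.0493).

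The call of Atp2a2 between genotypes was not stable. It was lost in 14 of the 17 fits that each left out a library, with adjusted p between 0.0135 and 0.139 over all of them (limma), and held only without KO TAC replicate 2, WT TAC replicate 1 or WT TAC replicate 3. It was also lost when scaled to the cardiomyocyte markers and with no filter on low values (limma adjusted p = 0.0559 and 0.0924). Without WT TAC replicate 5 its difference was -0.16, while Hrc and Pln still passed at -0.37 and -0.28. That replicate shares its library set with the KO libraries. Its 2831 FPKM of Atp2a2, 2189 of Pln and 331 of Hrc were above every KO TAC library. Those reached at most 2242, 2046 and 227 FPKM. On the first principal component, the axis along which the libraries in the model differed most, WT TAC replicate 5 stood at -0.1. The other TAC libraries stood at 6.5 to 30.1 and the sham libraries at -19.3 or lower. The part of this position in the levels of WT TAC replicate 5 was not tested. With the set as a term in the fit, the 5 KO TAC libraries are in effect set against that 1 library, which is assumed to vary like the others. The differences were then -0.53 for Atp2a2, -0.31 for Pln and -0.64 for Hrc, and no call is drawn from them. Slc8a1 averaged 21.2 ± 2.71 FPKM in KO TAC and 17.9 ± 1.66 in WT TAC (SD, n = 5 each; log2 difference 0.22 ± 0.08, limma adjusted p = 0.0897). Without KO TAC replicate 2 this difference was 0.30 and passed (limma adjusted p = 0.00899).

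In sham hearts 0 of the 9 members passed between KO and WT (limma), where 1.26% of all tested genes passed. An unadjusted p under 0.05 was found for 1 of 9 (Cacna1c) and for 14.2% of all tested genes. All KO sham libraries are in one library set and all WT sham libraries in the other, so genotype and set cannot be told apart here. Atp2a2 averaged 3308 ± 41.8 FPKM in KO sham (SD, n = 3) and 2952 ± 56.3 in WT sham (SD, n = 4), without overlap, and its log2 difference of 0.16 ± 0.09 had a limma adjusted p of 0.426. Cacna1c averaged 21.7 ± 1.65 FPKM in KO sham and 24.7 ± 1.09 in WT sham (log2 difference -0.18 ± 0.08, limma adjusted p = 0.332). Jph2 averaged 118 ± 1.36 and Hrc 381 ± 8.49 FPKM in KO sham, against 108 ± 4.5 and 407 ± 9.15 FPKM in WT sham. The sham groups of 4 of the 9 did not overlap, where 15.4% of tested genes did not.

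**Figure D3:**
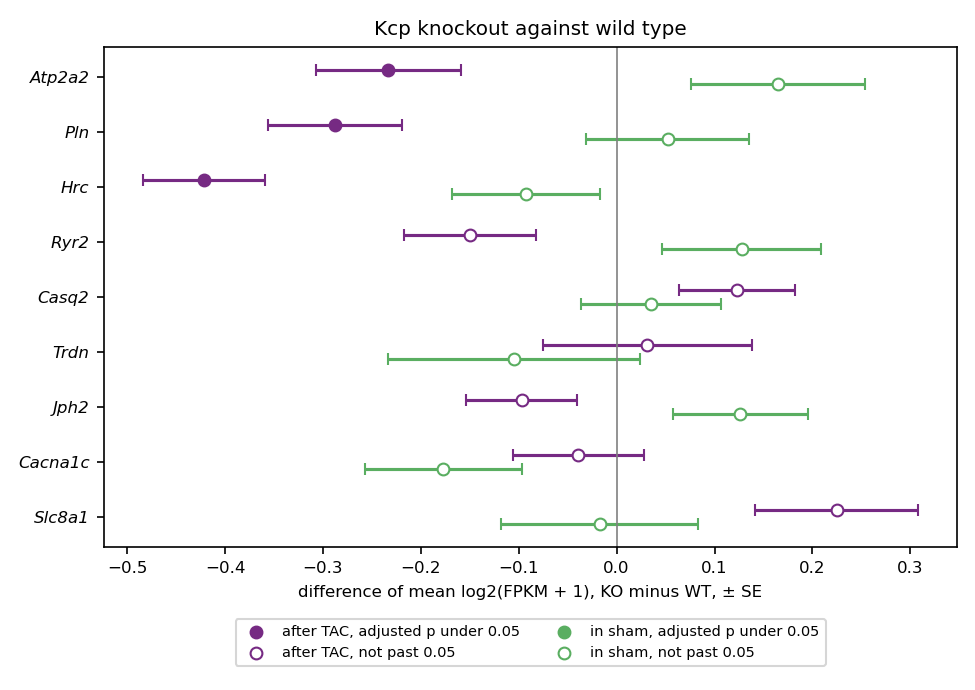
Difference of mean log2(FPKM + 1), KO minus WT, with its SE (x axis) for 9 genes (y axis), after TAC and in sham hearts. Filled points have adjusted p under 0.05. After TAC Hrc, Pln and Atp2a2 lie at -0.42, -0.29 and -0.23, and in sham hearts no gene passed.

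Whether TAC acted differently in the genotypes was tested as the interaction. No member passed: 0 of 9 (limma), where 0.93% of all tested genes did, and 5 of 9 had an unadjusted p under 0.05, where 18.8% of all tested genes did. Those with the lowest p were Atp2a2 (-0.40 ± 0.12, limma adjusted p = 0.086), Hrc (-0.33 ± 0.10, limma adjusted p = 0.0915) and Pln (-0.34 ± 0.11, limma adjusted p = 0.105). Ryr2 and Jph2 had -0.28 ± 0.11 and -0.22 ± 0.09 (limma adjusted p = 0.168 and 0.186). A negative value means a lower change in KO. Without WT TAC replicate 5 the values were -0.32 for Atp2a2, -0.27 for Hrc and -0.33 for Pln, and none passed; 17 of all tested genes then passed in place of 111. Without KO TAC replicate 2, Atp2a2 and Pln passed, at -0.45 and -0.39 (limma adjusted p = 0.0256 and 0.0257), and 597 of 11906 tested genes then passed in place of 111.

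Ratios within a library were compared with 2-sided exact permutation tests, 8 in all, adjusted together. The ratio of Atp2a2 to Pln, pump over inhibitor, was 1.11 ± 0.0803 in KO TAC, 1.1 ± 0.0329 in KO sham, 1.08 ± 0.138 in WT TAC and 1.02 ± 0.0115 in WT sham (SD; n = 5, 3, 5 and 4). It did not differ after TAC past the threshold, with a log2 difference of 0.01 in KO and 0.07 in WT (exact permutation p = 0.91 and 0.6, adjusted p = 0.91 and 0.68). In sham hearts every KO library was above every WT library, a log2 difference of 0.11 with exact permutation p = 0.029, the smallest these groups allow, and adjusted p = 0.063.

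The ratio of Slc8a1 to Atp2a2, exchanger over pump, is given as 1000 times the FPKM ratio. It was 13.7, 7.5, 10.4, 11.1 and 12.2 in KO TAC, against 5.82, 4.86 and 4.93 in KO sham. In WT it was 8.37, 8.59, 7.36, 7.51 and 7.10 after TAC, against 6.46, 5.52, 5.71 and 5.89 after sham. Every TAC library was above every sham library of its genotype. The log2 difference was 1.05 in KO and 0.40 in WT (exact permutation p = 0.018 and 0.0079, the smallest these groups allow). Between KO TAC and WT TAC it was 0.47 (exact permutation p = 0.032), and KO TAC replicate 2 lay within the WT TAC range. All 3 had an adjusted p of 0.063 and so did not pass.

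**Figure D4:**
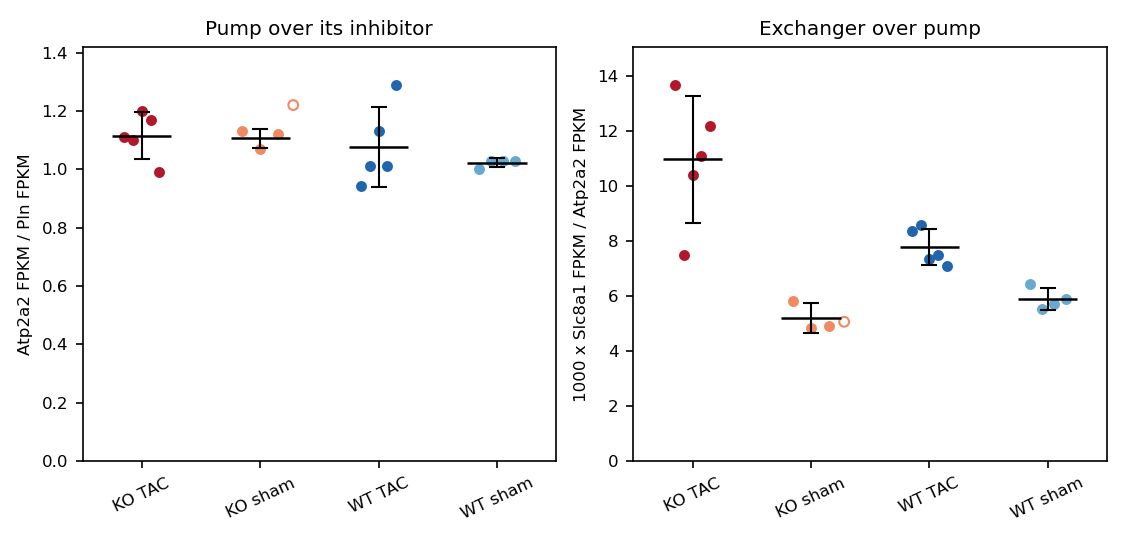
FPKM ratio of Atp2a2 to Pln (left) and 1000 times that of Slc8a1 to Atp2a2 (right) in each library of the 4 groups (x axes). Filled points are libraries in the model, bars are mean and SD, and the open point is KO sham replicate 2, outside the model. The right-hand ratio averages 11.0 in KO TAC, 5.20 in KO sham, 7.78 in WT TAC and 5.90 in WT sham.

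Other genes of calcium handling were taken from a list of 75, of which 73 were in the table and 65 were tested. After TAC 16 rose and 12 fell in KO, and 13 rose and 8 fell in WT. That is 43.1% and 32.3% of those tested, beside the 38.8% and 21.9% of all tested genes above. Of the pump regulators tested, 1 of 5 rose and 2 fell in KO, and 0 rose and 1 fell in WT. Strit1, whose micropeptide DWORF relieves inhibition of the pump, was at 1.92 ± 0.526 FPKM in KO TAC and 5.31 ± 3.24 in KO sham, and at 2.48 ± 0.469 in WT TAC and 5.87 ± 0.883 in WT sham (SD; n = 5, 3, 5 and 4), with KO sham libraries as far apart as 3.25 and 9.04 FPKM. It fell by 1.02 in KO and 0.98 in WT on the log2 scale (limma adjusted p = 0.00155 and 0.00255). S100a1, a calcium sensor that binds the pump and the ryanodine receptor, rose in KO (0.36 ± 0.09) and had 0.19 ± 0.08 in WT, which did not pass. Of the other calcium pumps, 2 of 4 rose in KO and in WT 0 of 4 passed (limma) and 0 had an unadjusted p under 0.05. Atp2b4, a calcium pump of the cell membrane, rose in KO (0.48 ± 0.07), and so did the Golgi pump gene Atp2c1 (0.18 ± 0.07). Their WT values were 0.11 ± 0.07 and 0.02 ± 0.06.

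The role counts that follow stand beside 38.8% of all tested genes in KO and 21.9% in WT. Of the 11 partners of the release channel tested, 4 rose and 1 fell in KO, and 5 rose and 0 fell in WT. Fkbp1a, which encodes the FKBP12 that binds ryanodine receptors, rose in both genotypes (0.34 ± 0.05 in KO and 0.21 ± 0.05 in WT), as did Sri, sorcin (0.39 ± 0.08 in KO and 0.23 ± 0.07 in WT). Srl, the gene of the reticulum protein sarcalumenin, rose in WT (0.35 ± 0.07) and had 0.19 ± 0.08 in KO, which did not pass. Dyad and T-tubule genes rose in 2 and fell in 5 of 10 in KO, and rose in 3 and fell in 1 of 10 in WT. Cmya5, a dyad organiser, fell in both (-0.29 ± 0.06 in KO and -0.23 ± 0.06 in WT). Jph1, the skeletal muscle junctophilin, fell in KO (-0.32 ± 0.08) and had -0.17 ± 0.07 in WT, which did not pass. Cav3, caveolin-3, rose in WT (0.28 ± 0.07) and had 0.17 ± 0.07 in KO, which did not pass.

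Kinase and phosphatase genes rose in 2 and fell in 2 of 17 in KO, and rose in 3 and fell in 4 of 17 in WT. Of all tested genes, 38.8% passed in KO and 21.9% in WT. The kinase and phosphatase count in KO, and the store-operated and IP3 receptor counts below, were near or under these shares. Camk2a, a calcium/calmodulin kinase gene, was at 10.8 ± 1.24 FPKM in KO TAC and 20.2 ± 0.594 in KO sham, and at 12.8 ± 1.49 in WT TAC and 18.5 ± 0.646 in WT sham. It fell by 0.85 in KO and 0.50 in WT on the log2 scale (limma adjusted p = 8.53e-07 and 0.000253). Prkar1a, a regulatory subunit of protein kinase A, rose in both (0.99 ± 0.13 in KO and 0.48 ± 0.12 in WT). Ppp1cc, a phosphatase 1 catalytic subunit, rose in WT (0.21 ± 0.04) and had 0.11 ± 0.05 in KO, which did not pass. Store-operated and IP3 receptor genes rose in 2 and fell in 0 of 9 in KO, and rose in 1 and fell in 1 of 9 in WT. The store sensor Stim2 rose in KO (0.45 ± 0.10) and had 0.24 ± 0.09 in WT, which did not pass. Orai3, a store-operated channel gene, fell in WT (-0.27 ± 0.09) and had -0.25 ± 0.10 in KO, which did not pass. These counts include Orai2, another such channel gene, which reached the 1 FPKM filter only through KO TAC, so no support is drawn from it. It averaged 0.974 ± 0.249 FPKM in KO TAC, 0.368 ± 0.0405 in KO sham, 0.529 ± 0.0424 in WT TAC and 0.265 ± 0.0626 in WT sham (SD; n = 5, 3, 5 and 4). Genes of the mitochondrial uniporter rose in 3 and fell in 2 of 9 in KO, among them Micu2 (0.36 ± 0.09) and Mcur1 (-0.24 ± 0.07), whose WT values were 0.01 ± 0.08 and -0.08 ± 0.06. In WT Micu3 fell (-0.38 ± 0.12), and its KO value was 0.06 ± 0.13.

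**Figure D5:**
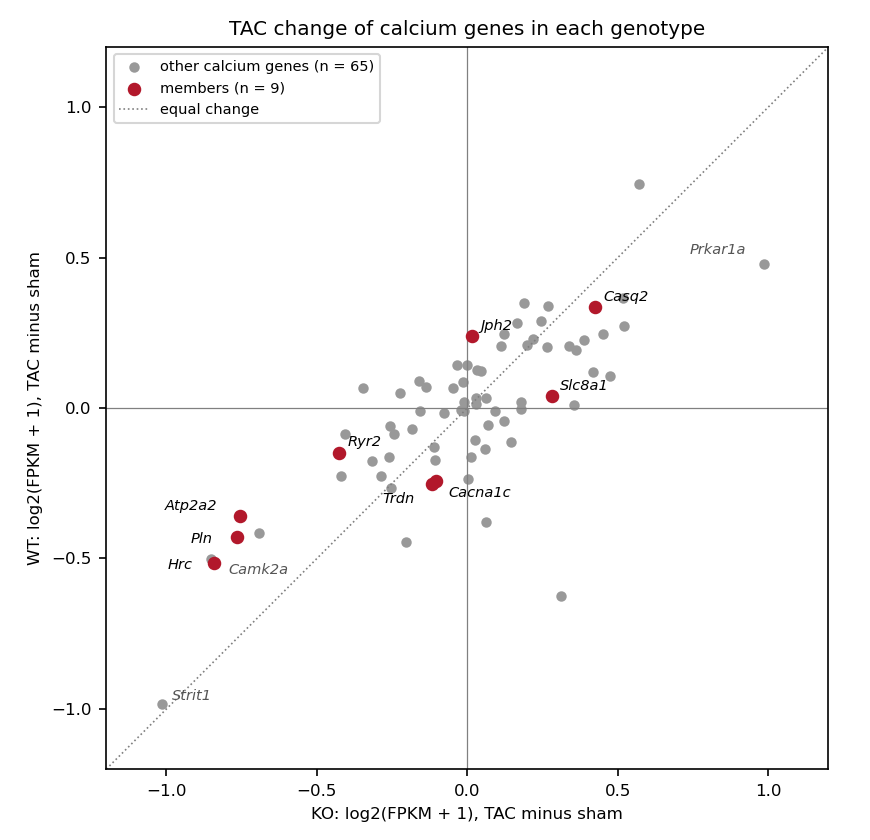
Difference of mean log2(FPKM + 1), TAC minus sham, in KO (x axis) and WT (y axis) for the 9 tested members (red) and 65 other calcium handling genes (grey); the dotted line marks equal change. Atp2a2, Pln and Hrc lie left of that line, and Strit1, at -1.02 and -0.98, lies near it.

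Between genotypes, 6 of the 65 other calcium genes passed after TAC, 3 higher and 3 lower in KO, and 1 in sham hearts. That is 9.23% and 1.54%, where 11.3% and 1.26% of all tested genes passed. After TAC Cmya5 (-0.28 ± 0.05), Tmem38a, which encodes the reticulum potassium channel TRIC-A (-0.18 ± 0.04), and Mcur1 (-0.22 ± 0.06) were lower in KO. Micu2 (0.28 ± 0.07) and Prkaca, a catalytic subunit of protein kinase A (0.17 ± 0.05), were higher, and the other one higher was Orai2, subject to the filter as above. In sham hearts Smdt1, an essential uniporter subunit, averaged 171 ± 17.8 FPKM in KO and 125.5 ± 15.2 in WT (log2 difference 0.45 ± 0.10, limma adjusted p = 0.0275). The interaction passed for 0 of the 65 (limma), and 12 of the 65 had an unadjusted p under 0.05, where 18.8% of all tested genes did.

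The genes whose level followed Atp2a2 most closely over the 17 libraries were Clcn1, Dglucy, Wnk2, Etfa and Ldhd, with Pearson r between 0.969 and 0.977. Those closest to Pln were Ldhb, Etfb, Hadh, Slc2a4 and Eci1, with r between 0.977 and 0.985. Among the members, Pln and Hrc ranked 89 and 135 by likeness to Atp2a2 (r = 0.940 and 0.931), and Casq2 ran opposite to it (r = -0.842). The values come from the same libraries, TAC and sham together, and are given as a description.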

How the data were processed

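RNA was measured in 18 heart libraries; the labels' protocols name a Qiagen column kit for the RNA and a SMARTER kit for the libraries. The authors deposited a table of 34714 genes in FPKM, a unit inferred from the values: never negative, not whole, summing to 390453 to 432264 per library, and not on a common step at the low end. RPKM could not be told apart from it. The genome build was mm10, per the submitters' processing notes; the sources used here name no aligner or counter. Depth is unknown, so no counting interval is given.

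Computed here: the 11937 genes that reached 1 FPKM in 3 of 17 libraries were fitted as log2(FPKM + 1) with a mean per group in limma 3.58.1 (R 4.3.3; trend and robust moderation), with Benjamini-Hochberg adjustment over all of them and a threshold of 0.05. Fold changes on this scale are understated for low genes. The fit was tested on simulated data. Ratios were tested with exact permutation tests. Genes named were all members, Kcp, per role and comparison the 2 called calcium genes of lowest adjusted p, and the 5 genes most correlated with Atp2a2 and with Pln; atrial and skeletal markers were named after their values were seen. A few genes that this rule names are not reported here. Of that list, Erln and Arln were not found in the table. Coordinates and promoters are from RefSeq on GRCm38.p6. The members and lists were chosen with earlier results of these data known. Alternatives were all 18 libraries, a replicate block, another pseudocount, no filter, 2 other scalings, only the groups compared, no moderation by trend, and each library left out; the library set and a fit without 2 TAC libraries were added after seeing the data.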

Additional observations from a re-analysis of the deposited data

Results flagged for a closer look

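Sln in WT sham replicate 3 (0.791 FPKM) stood apart from the other WT sham libraries, which were listed at 0. Any value above 0 there would have been flagged, so nothing is drawn from this flag. The ratio of Atp2a2 to Pln in WT sham replicate 1 (1.003) was the lowest of its group and lay apart from 3 libraries that agreed closely near 1.03. Chance flags about 1 in 20 groups, a rate that does not hold for values at 0. The 36 combinations of measure and group include Sln in KO TAC, which was at 0 throughout and could not be flagged.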

How the results depend on the processing

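The counts of members past the threshold after TAC stayed within 5 to 7 in WT and 5 to 6 in KO when single libraries were left out, and 2 to 4 between genotypes after TAC. After TAC the KO to WT count was 1 (Hrc) with only those groups fitted, and 5 without WT TAC replicate 5 and KO TAC replicate 2 together. Over all genes, 663 to 1833 passed in that comparison when single libraries were left out, and 1467 of 11891 without those 2 TAC libraries. The interaction count was 1 (Hrc) with all 18 libraries, 2 without those 2 TAC libraries together (Atp2a2 and Pln), and 0 to 2 when single libraries were left out. Over all genes the interaction count was 111; it was 300 with all 18 libraries, 460 without the 2 TAC libraries, 345 with the replicate block, 199 with median-ratio scaling, 16 with no filter, 17 with the library set as a term, and 7 (without KO sham replicate 1) to 597 (without KO TAC replicate 2) when single libraries were left out. The all-gene count between genotypes after TAC, 1350, was 814 with only those groups fitted and 243 with the set as a term, and the sham count, 151, was 227 with all 18 libraries, 12 with the set as a term, and 50 without KO sham replicate 3. With the replicate number as a block the member counts were 6, 6, 0, 3 and 0, as without it. Same-numbered libraries did not deviate together (r between -0.24 and 0.16). These values cannot exclude pairing by number, as differently numbered libraries were not compared. The block changed no call of a member, though it moved the all-gene interaction count as given above.

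Of the called changes, Slc8a1 after TAC in KO was also lost with no filter and with only those groups fitted (limma adjusted p = 0.0544 and 0.0653), and between genotypes after TAC, Pln with only those groups fitted (limma adjusted p = 0.0535) and Atp2a2 with no filter, with only those groups fitted and without trend or robust moderation (limma adjusted p = 0.0924, 0.127 and 0.065). Direction reversed only for values that did not pass the threshold. Slc8a1 after TAC in WT was -0.002 with the library set as a term and without the 2 TAC libraries, and -0.002 to 0.084 when single libraries were left out. Jph2 after TAC in KO was -0.021 with the replicate block and -0.002 to 0.033 when single libraries were left out. With the set as a term the sham differences of Atp2a2, Casq2, Jph2 and Ryr2 were -0.21 (-0.209), -0.13 (-0.128), -0.079 and -0.12 (-0.118), and those of Casq2 and Trdn after TAC -0.007 and -0.091; Cacna1c after TAC was 0.024 without the 2 TAC libraries. When single libraries were left out, the sham differences ranged from -0.020 to 0.089 for Casq2, -0.086 to 0.023 for Slc8a1 and -0.183 to 0.005 for Trdn, and those after TAC from -0.081 to 0.001 for Cacna1c and -0.040 to 0.102 for Trdn. The Atp2a2 to Pln difference after TAC in KO was -0.025 with all 18 libraries and -0.017 to 0.052 when single libraries were left out. The Slc8a1 to Atp2a2 difference was 0.363 to 0.445 after TAC in WT and 0.383 to 0.599 between genotypes after TAC when single libraries were left out, and passed in both comparisons without KO TAC replicate 2 (exact permutation adjusted p = 0.032). The causes were not tested.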
